A study of Homo sapiens with 6 samples.

Results

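The metallothionein gene cluster on human chromosome 16 was examined for accessible chromatin, as all DNase-seq peaks between positions 56540000 and 56780000 (hg19), a window that holds the cluster from MT4 to MT1X with its flanks. In DNase-seq, open chromatin is cut by DNase I, and reads of the freed ends pile up at accessible sites. Peaks from 6 libraries sharing at least 1 bp were merged, which gave 22 regions here of 81216 in the genome. The cells were A549, a human lung adenocarcinoma line. The 3 dexamethasone libraries came from cells given 100 nM dexamethasone, a synthetic glucocorticoid, for 1 h, and the 3 ethanol libraries from cells given 0.02% ethanol, the vehicle, for 1 h. The labels do not say whether libraries of a treatment came from separate cultures, so p-values measure only the spread between these libraries, which may be technical.

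Metallothioneins are small, cysteine-rich proteins that bind zinc and copper and take up toxic metals such as cadmium. Zinc raises their transcription through the factor MTF-1, which binds metal response elements in their promoters. MT2A, the most widely expressed member, is in addition a classical glucocorticoid-induced gene, with receptor binding sites upstream of its promoter. The MT1 genes (MT1A, MT1E, MT1F, MT1G, MT1H, MT1M and MT1X) encode closely related isoforms, whereas MT3 is known mainly from brain and MT4 from stratified squamous epithelia. In RefSeq (GRCh38.p14) the order along the chromosome is MT4, MT3, MT2A, MT1E, MT1M, MT1A, MT1F, MT1G, MT1H and MT1X, with MT1B, pseudogenes and non-coding genes between them. That annotation is of another build than the peaks. In hg19 only the MT2A start (56642478), the outer end of MT4 (about 56599043) and the outer end of MT1X (about 56718000) were used, and the other genes were not assigned to single regions. For the same reason the lung epithelial identity of the cells was not checked against marker genes here. Distances below are counted from the MT2A start, negative on the side of lower coordinates, which is upstream because MT2A lies on the plus strand.

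Promoter sequences from RefSeq were available for 4 of the 10 genes, MT4, MT2A, MT1H and MT1X, each from 250 bases before to 50 after the gene start. Sequences of 3 are shown because they belong to the gene at the centre of the results (MT2A), to the gene at the most strongly open end of the cluster (MT1X) and to one with no called region at its position (MT4). Capitals mark the metal response element core, TGCNCNC, on either strand. The windows are chr16:56608334-56608633 for MT2A, chr16:56682220-56682519 for MT1X and chr16:56564823-56565122 for MT4, all GRCh38.p14, plus strand.
MT2A: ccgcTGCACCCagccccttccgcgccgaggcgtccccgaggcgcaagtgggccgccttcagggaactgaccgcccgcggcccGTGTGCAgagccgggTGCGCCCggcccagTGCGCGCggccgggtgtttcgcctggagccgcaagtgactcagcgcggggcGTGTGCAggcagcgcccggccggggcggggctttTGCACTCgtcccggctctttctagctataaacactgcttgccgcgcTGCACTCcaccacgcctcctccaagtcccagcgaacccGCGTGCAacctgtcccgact
MT1X: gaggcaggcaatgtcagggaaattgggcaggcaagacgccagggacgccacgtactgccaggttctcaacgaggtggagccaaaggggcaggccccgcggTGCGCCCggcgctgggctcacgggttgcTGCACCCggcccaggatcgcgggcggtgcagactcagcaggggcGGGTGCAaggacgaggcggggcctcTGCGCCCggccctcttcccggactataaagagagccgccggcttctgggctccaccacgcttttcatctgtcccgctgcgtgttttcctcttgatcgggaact
MT4: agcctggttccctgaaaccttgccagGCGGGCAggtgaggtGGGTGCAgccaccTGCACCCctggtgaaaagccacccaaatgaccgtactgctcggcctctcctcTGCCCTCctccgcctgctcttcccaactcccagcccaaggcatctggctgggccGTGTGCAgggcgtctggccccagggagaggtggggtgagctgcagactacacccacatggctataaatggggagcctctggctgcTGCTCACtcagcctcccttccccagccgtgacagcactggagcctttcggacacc

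The MT2A promoter held 8 matches to the core, 5 on the forward and 3 on the reverse strand, none overlapping another. MT1H also held 8, MT4 held 6 and MT1X held 4. Of all 35116 RefSeq promoters of this length, 55.9% held at least 1 match, and the median promoter held 1. At least 8 matches were found in 0.0712% of promoters, at least 6 in 0.316% and at least 4 in 2.94%. The letters ACANNNTGT, the core of the palindrome bound by the glucocorticoid receptor, were in none of the 4 windows and in 5.37% of all promoters. The windows begin 250 bases before the gene start, so sequence farther upstream was not searched. TGACTCA, the AP-1 site, searched after the sequence had been seen, occurred once in the MT2A promoter, at −104 to −98, and in none of the other 3 windows, against 4.95% of all promoters. A match is a stretch of letters and not a measured binding site. GC content was 72% for MT2A, 67% for MT1X, 68.3% for MT1H and 64.3% for MT4, against a median of 58.7% over all promoters.

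Most open chromatin of the locus was called under both treatments, and no region had peaks in all 3 libraries of one treatment and none of the other. Of the 22 regions, 12 (54.5%) had a peak in all 6 libraries, against 49.2% of all regions of the genome. The pattern of every dexamethasone library and no ethanol library was held by 1.1% of all regions, and the reverse by 0.662%. A looser count gave 1 region with peaks in dexamethasone libraries only, in 1 library, and 5 with peaks in ethanol libraries only, 4 in 1 library and 1 in 2. With libraries paired by number and at least 2 of 3 pairs required, 0 regions were gained and 2 were lost after dexamethasone, those at 56592283 and 56776588 described further on. The region at 56776588 still had a peak in dexamethasone library 3. For the looser count and the paired rule no share of all regions was taken, so neither is set against the genome. A single library gave 5 of the 22 regions (22.7%), against 18.9% in the genome. The window was rich in open sites. Over 12904 stretches of the same length across the genome the median count was 4 regions and 1 region called in all libraries, and 5.07% of stretches held at least 12 regions called in all libraries. Where no peak is listed, the signal stayed under the threshold of the peak caller, which does not show a closed site, and in bulk cells fewer open cells cannot be told apart from weaker opening per cell.

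**Figure D1:**
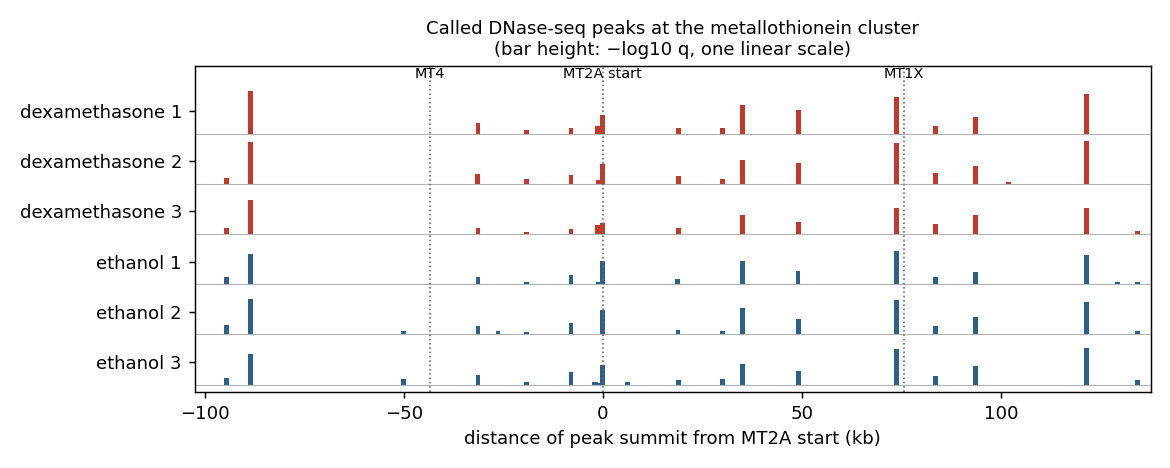
Called peaks of the 6 libraries, with the distance of each summit from the MT2A start on the x axis (kb) and bar height giving −log10 q on one linear scale. Dotted lines mark the MT2A start and the outer ends of MT4 and MT1X. The 12 regions called in every library recur as columns, while the space around MT4 holds 2 small ethanol peaks and no dexamethasone peak.

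Open regions were unevenly placed along the cluster. Between the outer ends of MT4 and MT1X lay 13 regions, of which 8 were called in all 6 libraries, 3 upstream of MT2A, 1 over its start and 4 downstream. No region covered the MT4 end of the cluster. The nearest ones lay 6.47 kb outside it (56592283 to 56592569, called in 2 ethanol libraries) and 11.9 kb inside it (56610943 to 56611296, called in all). Downstream of MT2A there are 12 MT1 genes and pseudogenes in RefSeq before MT1X, but only 3 regions called in all 6 libraries before the one at MT1X. The longest stretch with no peak in any library inside the cluster was 23.8 kb, from 56692001 to 56715825, just before that last region.

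The MT2A start lay inside a region called in every library (56642114 to 56642646), which reached from −364 to 168. Within it, all 3 dexamethasone peaks extended farther upstream than all 3 ethanol peaks. The upstream edge was at −353, −364 and −339 in dexamethasone libraries 1 to 3, and at −235, −254 and −250 in ethanol libraries 1 to 3. All 3 dexamethasone edges lay outside all 3 ethanol edges, and 85 bases separated the closest pair. The edge was shifted by −106 bases (SE 11.5, n = 3 each), but limma, fitted on all 34540 regions with exactly 1 peak in every library, gave p = 0.000107 and a Benjamini-Hochberg adjusted p = 0.0724, which misses the threshold of 0.05. In that fit 30 regions (0.0869%) passed with an edge lower in coordinate after dexamethasone and 7 (0.0203%) with a higher one. Edges were compared after the MT2A peaks had been seen. With libraries paired by number, limma gave the MT2A upstream edge an adjusted p = 0.469. Leaving out 1 library gave adjusted p from 0.1 to 0.227 in limma. Without an overlap between treatments, 4.87% of the regions had a lower and 5.81% a higher dexamethasone edge. In the direction seen at MT2A alone, dexamethasone lower, 72 (0.208%) were separated by at least as many bases as there. Over both edges of a region, 138 regions (0.4%) had such a separation with the dexamethasone peaks reaching farther out, and 56 (0.162%) with the ethanol peaks reaching farther out.

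The downstream edge of the MT2A peaks was at 132, 115 and 147 after dexamethasone, and at 154, 168 and 152 after ethanol (−26.7 bases, SE 12.1, limma adjusted p = 0.898, with 0.119% of regions passing in either direction). Every dexamethasone peak thus ended short of every ethanol peak on this side. The share of all regions with downstream edges apart was not taken. Peak widths were 486, 480 and 487 bp with dexamethasone, and 390, 423 and 403 bp with ethanol. The widths did not overlap, but the share of all regions with widths apart was not taken. Their difference of 79 bp (SE 17.6) had an unadjusted p = 0.00385 and an adjusted p = 0.422 by limma, where 0.0492% of regions passed that adjusted threshold. The summit, the position of highest signal, was at −149, −155 and −46 with dexamethasone, and at −36, −38 and −25 with ethanol. Dexamethasone libraries 1 and 2 thus peaked more than 100 bases upstream of all ethanol libraries, and library 3 lay 8 bases from the nearest of them. The mean shift was −83.7 bases (SE 29.9, limma adjusted p = 0.91, with 0.0579% of regions passing). Summits of the treatments did not overlap in 4.97% of regions with the lower dexamethasone position and in 5.06% with the higher one. Without dexamethasone replicate 3, whose summit lay nearest to ethanol, the mean shift was −119 bases, with an adjusted p = 0.0459 in limma. None of the other settings among 10 alternatives passed, with adjusted p up to 0.934 in limma. The share of regions passing without dexamethasone replicate 3 was not taken.

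**Figure D2:**
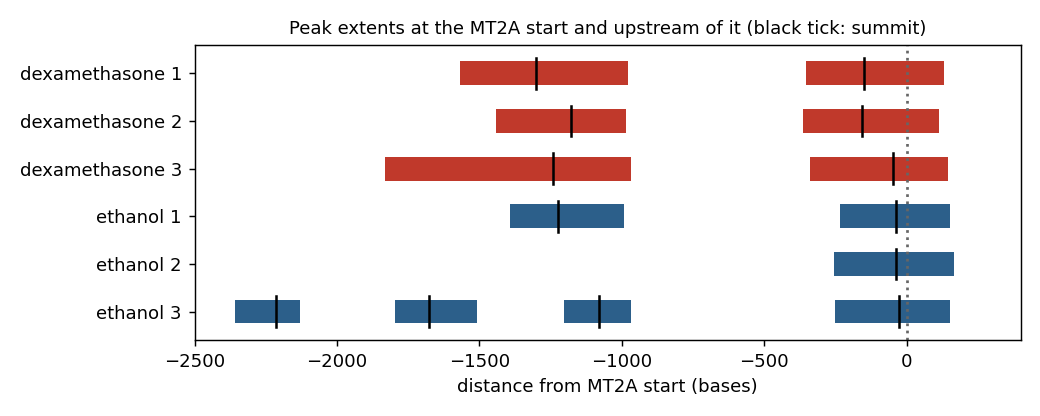
Extent of each called peak at the MT2A start and upstream of it, by library, against the distance from the MT2A start (bases). Black ticks mark summits. The 3 dexamethasone peaks at the start reach to between −364 and −339, and the 3 ethanol peaks to between −254 and −235.

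Although longer, the peaks at the MT2A start ranked lower in all 3 dexamethasone libraries. The authors' fold enrichment, which sets the summit signal against the background that the caller estimated in the same library, was 7.12, 8.36 and 5.66 with dexamethasone, and 9.30, 9.85 and 8.41 with ethanol. The −log10 q of these peaks was 56.0, 59.7 and 32.7 with dexamethasone, and 69.6, 72.4 and 58.3 with ethanol, which overlapped. These values depend on each library's own depth and background, so strength was compared by the percentile of −log10 q among the 39934 regions called in all 6 libraries, a list of one length and the same regions for every library. The MT2A region stood at the 73.4, 74.3 and 59.1 percentile with dexamethasone, and at 83.6, 83.1 and 76.7 with ethanol. All dexamethasone percentiles lay below all ethanol ones, with 2.41 points between the closest pair. On normal scores, which place the ranks on a standard normal scale, the difference was −0.39 (SE 0.15), with an unadjusted p of 0.0173 and an adjusted p = 0.605 in limma, adjusted over all 39934 regions.

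Just upstream of MT2A lay a region at 56640647 to 56641512, or −1831 to −966, which was 1 of only 2 in the window with more dexamethasone than ethanol calls. It had a peak in every dexamethasone library and in 2 of the ethanol libraries, a pattern shared by 3.18% of all regions. Its fold enrichment was 4.49, 3.55 and 5.06 in the dexamethasone libraries and 3.06 and 3.07 in ethanol libraries 1 and 3, with no peak in ethanol library 2. In ethanol library 3 it was split into 2 separate peaks, and the weaker of them had a fold of 2.96. Peaks covered 589, 455 and 866 bp of the region with dexamethasone, and 401, 0 and 523 bp with ethanol, so covered length overlapped between treatments.

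To compare strength in this region, the lists were shortened to the 58281 strongest peaks each. Its percentile was then 54.9, 20.6 and 63.7 in dexamethasone libraries 1 to 3, and 8.79 and 3.56 in ethanol libraries 1 and 3. Every dexamethasone value exceeded both ethanol values. The same held for 398 (17.1%) of 2334 regions with this pattern of calls, and no test was made on the single region. Between this region and the peak at the MT2A start, 626, 622 and 626 bases were left without a peak in the dexamethasone libraries, and 758 and 717 bases in ethanol libraries 1 and 3. The region's own downstream end overlapped between treatments, at −980, −987 and −966 with dexamethasone and at −994 and −968 in those ethanol libraries. The gap thus mostly repeats the upstream edges at MT2A given above and is not a separate result. A small further peak at 56640121 to 56640347 (−2357 to −2131) was called in ethanol library 3 alone, with a fold of 3.27.

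The next region upstream, 56634298 to 56634663 (8.18 kb from the MT2A start), ranked lower in all 3 dexamethasone libraries. Its fold enrichment was 6.89, 9.17 and 6.25 with dexamethasone, and from 9.09 to 10.8 with ethanol. It stood at the 25.1, 43.1 and 23.1 percentile of the shared regions with dexamethasone, and at the 45.0, 53.2 and 59.4 percentile with ethanol. The percentiles did not overlap, although dexamethasone library 2 and ethanol library 1 were 1.84 points apart. The difference in normal scores was −0.59 (SE 0.25), with an unadjusted p = 0.0239 and an adjusted p = 0.668 by limma. The summits lay between −7986 and −7977 with dexamethasone and between −7988 and −7973 with ethanol.

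Farther upstream, between MT4 and MT2A where RefSeq places MT3, the 2 other regions called in all libraries differed widely in strength from each other. The region at 56610943 to 56611296 had percentiles of 50.6, 43.4 and 29.9 with dexamethasone and of 36.8, 37.5 and 45.0 with ethanol, which overlapped. That at 56623239 to 56623568 was among the weakest shared regions of the genome, at 7.78, 10.4 and 0.685 with dexamethasone and 0.959, 0.467 and 4.11 with ethanol. Its folds were 5.80, 6.03 and 4.24 with dexamethasone and 4.26, 4.20 and 5.42 with ethanol, again overlapping. A peak at 56616026 to 56616298 was called in ethanol library 2 alone.

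Downstream of MT2A, the first region called in every library lay at 56661006 to 56661524, 18.5 kb from the MT2A start. Its percentiles were 21.4, 32.2 and 27.0 with dexamethasone, and 20.7, 13.0 and 14.5 with ethanol. They did not overlap, but dexamethasone library 1 and ethanol library 1 were only 0.779 points apart, and limma gave a difference in normal scores of 0.38 (SE 0.33, adjusted p = 0.93). The start of its peaks varied between libraries of the same treatment. They started at 18723 to 18727 in dexamethasone libraries 1 and 2 and at 18528 in library 3, and at 18550, 18579 and 18767 in ethanol libraries 1 to 3.

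The 2 following shared regions ranked above the median of the shared regions of the genome in every library. At 56677284 to 56677712 (34.8 kb), folds were 13.7, 12.7 and 12.04 with dexamethasone and 13.5, 14.1 and 11.9 with ethanol, and the percentiles of 87.4, 80.0 and 80.9 with dexamethasone overlapped those of 84.1, 86.1 and 78.3 with ethanol. The difference in normal scores was −0.0023 (SE 0.14, limma adjusted p = 0.999). At 56691296 to 56692000 (48.8 kb), folds were 12.6, 11.4 and 8.78 with dexamethasone and 9.01, 9.47 and 9.12 with ethanol. Its percentiles were 81.3, 75.7 and 64.0 with dexamethasone and 62.4, 66.9 and 63.1 with ethanol, and dexamethasone library 3 lay among the ethanol values (difference 0.29, SE 0.16, limma adjusted p = 0.832).

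A further region, 56672328 to 56672639, was called in dexamethasone libraries 1 and 2 and in ethanol libraries 2 and 3. Its folds of 5.51 and 4.80 with dexamethasone and of 4.56 and 5.92 with ethanol overlapped. The only other region between MT2A and these sites, 56648522 to 56648772, had a peak in ethanol library 3 alone, with a fold of 4.55.

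The strongest region inside the cluster was at its MT1X end, 56715826 to 56716524, 73.3 kb from the MT2A start. MT1X is 1727 bases long in RefSeq, and the position that far before its outer end, 56716274, lies inside this region, so the region covers the approximate MT1X start. Its folds were 14.1, 16.4 and 13.1 with dexamethasone and 16.1, 15.2 and 15.8 with ethanol. The percentiles were 94.1, 96.4 and 91.2 with dexamethasone and 94.5, 94.3 and 95.4 with ethanol, overlapping, with a difference in normal scores of −0.05 (SE 0.15, limma adjusted p = 0.989). Summits lay at 73799 to 73805 in all 6 libraries. The upstream edges of the MT1X peaks were at 73377, 73403 and 73348 with dexamethasone and at 73378, 73393 and 73421 with ethanol. They overlapped, unlike those at MT2A (difference −21.3 bases, SE 18.8, limma adjusted p = 0.92).

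**Figure D3:**
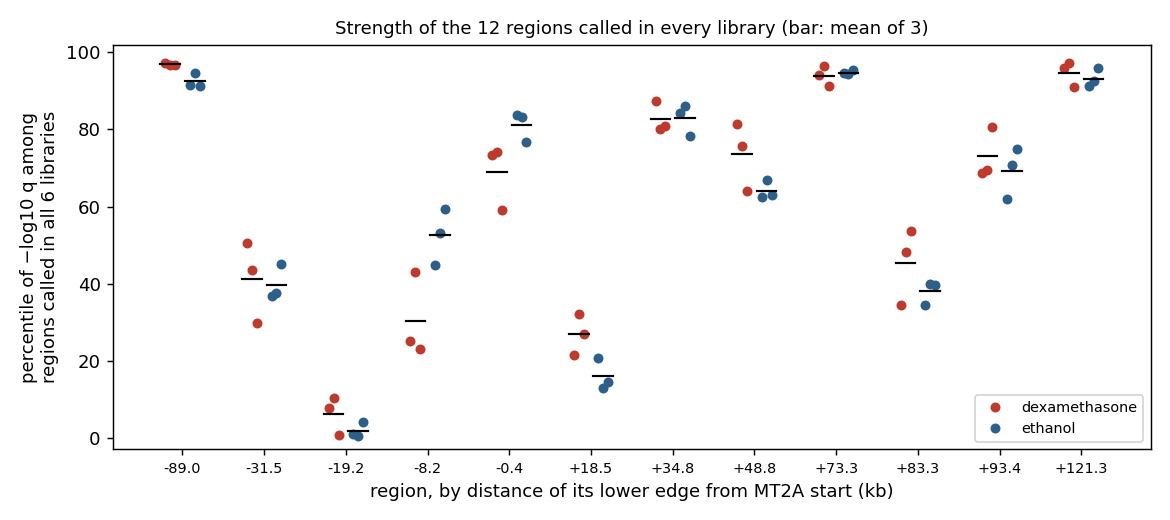
Percentile of −log10 q among the regions called in all 6 libraries (y axis), for the 12 such regions of the window in order along the chromosome (x axis, kb from the MT2A start). Points are libraries and black lines are means of 3. Dexamethasone and ethanol points are apart in 4 regions, 2 with dexamethasone higher (the first and the sixth) and 2 with dexamethasone lower (the fourth and the fifth, which is MT2A).

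Across the 12 shared regions, percentiles of the treatments were fully apart in 4. Dexamethasone was higher in 2, against 5.79% of all shared regions, and lower in 2, against 5.62%. The count with dexamethasone higher was 5 without dexamethasone replicate 3 and 4 without ethanol replicate 2. With fewer libraries, groups are more easily apart, and no genome share was taken for these settings, so 5.79% does not apply to them. None of the 12 passed an adjusted p of 0.05 in limma, where the lowest was 0.485. In the genome 78 regions (0.195%) passed as higher and 4 (0.01%) as lower after dexamethasone. With the replicate number as a block, 221 (0.553%) passed as higher and 62 (0.155%) as lower, again with none of the 12. The upstream edge was apart with dexamethasone farther out in 1 of the 12, at MT2A, against 4.87% of all regions fitted for edges. It was apart the other way in 0 of the 12, against 5.81%.

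**Figure D4:**
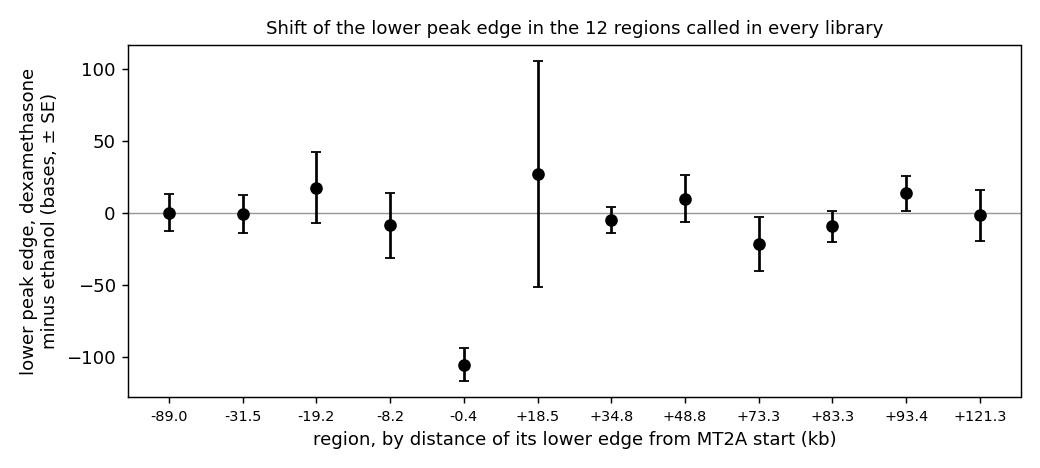
Difference in the lower peak edge, dexamethasone minus ethanol (bases, y axis, with SE from limma, n = 3 each), for the 12 regions called in every library (x axis, kb from the MT2A start). The MT2A region is at −106 bases, and the other 11 lie between −21.3 and 27.3 bases.

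The flanks outside MT4 and MT1X held 9 regions, 3 below and 6 above the cluster. Of the 3 regions of the window that stayed above the 90th percentile in every library, 2 were flanking ones. At 56553434 to 56554246, on the far side of MT4, percentiles were 97.2, 96.8 and 96.8 with dexamethasone and 91.6, 94.8 and 91.4 with ethanol. These did not overlap, and the difference in normal scores was 0.42 (SE 0.15, limma adjusted p = 0.485). Its folds of 18.1, 17.1 and 15.6 with dexamethasone and of 15.2, 16.5 and 15.4 with ethanol did overlap. At 56763738 to 56764395, on the far side of MT1X, percentiles of 96.0, 97.3 and 91.0 with dexamethasone and of 91.2, 92.5 and 95.9 with ethanol overlapped.

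The 2 other shared regions beyond MT1X were of middle strength. At 56725796 to 56726185 the percentiles were 34.4, 48.1 and 53.5 with dexamethasone and 34.4, 40.0 and 39.5 with ethanol. At 56735903 to 56736287 they were 68.8, 69.6 and 80.6 with dexamethasone and 61.8, 70.7 and 74.9 with ethanol. Both pairs overlapped.

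The flanking regions with partial calls had more ethanol than dexamethasone calls, except the one at 56744237 to 56744444. That at 56776588 to 56776857 had a peak in dexamethasone library 3, with a fold of 5.38, and in all ethanol libraries, with folds of 4.75, 6.21 and 6.75. The region nearest to MT4 on the outside, 56592283 to 56592569, had no dexamethasone peak and folds of 5.36 and 7.21 in ethanol libraries 2 and 3. At 56547878 to 56548190, dexamethasone library 1 had no peak, libraries 2 and 3 had folds of 7.97 and 7.95, and the ethanol libraries had folds of 9.37, 11.01 and 9.16. Single peaks were called in dexamethasone library 2 at 56744237 to 56744444 and in ethanol library 1 at 56771567 to 56771783.

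Counted over the whole window, 2 regions (9.1%) had more dexamethasone than ethanol calls, against 19.7% in the genome, and 7 (31.8%) had more ethanol than dexamethasone calls, against 22.5%. The dexamethasone libraries had 14, 16 and 15 peaks in the window and the ethanol libraries 16, 17 and 20, with means of 15 ± 1 and 17.7 ± 2.1 (SD, n = 3 each; exact two-sided permutation p = 0.2, smallest possible 0.1). Their whole lists held 58360, 60646 and 58677 peaks with dexamethasone and 58281, 60453 and 61344 with ethanol. With every list shortened to its 58281 strongest peaks the difference was −3 peaks (p = 0.1 in the same exact test, the smallest possible), against −2.67 with whole lists. Between MT4 and MT1X it was −1 peak (exact permutation p = 0.9), with 9.67 ± 0.58 peaks with dexamethasone and 10.7 ± 2.1 with ethanol (SD over 3 libraries each). Peaks covered 6.53 ± 0.25 kb with dexamethasone and 6.85 ± 0.32 kb with ethanol (SD over 3 libraries each; p = 0.3 in the same exact test). Between MT4 and MT1X alone, the covered length was 4.16 ± 0.081 kb with dexamethasone and 4.09 ± 0.34 kb with ethanol (SD over 3 libraries each; p = 0.8 in the same exact test), so the sign of this difference depended on the flanks.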

How the data were processed

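The authors deposited 1 DNase-seq peak list per library, in hg19; per the submitters' processing notes CASAVA 1.3, Bowtie, bedtools and MACS2 2.1.0 were used, with no settings given. The lists have no header and were read in the narrowPeak layout of MACS2. From that layout the authors' ratio column holds a fold enrichment per peak, and the deposited p-value and q-value columns hold −log10 values. The deposited score, which follows −log10 q, was not used, and the deposited summit offset gave summit positions. No read counts are given, so depth is unknown and intervals based on reads cannot be given. The lowest −log10 q of a list was 2.51 to 2.71.

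Regions, calls and values came from Python 3.11.15 and pandas 2.3.3, and fits from limma 3.58.1 in R 4.3.3, tested on simulated data. Where a library had several peaks in a region, the strongest gave its rank. Ranks were turned to normal scores, and limma (with trend) was fitted over all 39934 shared regions. Edges, summits and widths were fitted without trend over 34540 regions. Positions count from 1. No pair of lists held the same peaks.

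The members, lists and comparisons were chosen with earlier results of these data known. By rule, values per library are given for regions called in all libraries of one treatment and none of the other and for shared regions past an adjusted p of 0.05 (0 of each), for the region at MT2A and for the 5 of highest mean percentile. Those of other regions were added after their values had been seen. Same-numbered libraries deviated together over the shared regions (correlations 0.208, 0.124 and 0.147, for numbers 1 to 3, and −0.163 to −0.002 for other pairings). On the data alone, the replicate number was therefore used to pair libraries, but only in the alternative with a replicate block. The main fits and exact tests did not pair libraries, so their SE and p-values leave this pairing out. A planned list of zinc transport genes needs hg19 gene positions and was not analysed here. Other settings tried were lists of one length, −log10 q not under 5, merging across 100 bp, a cover of 50% of a region, the cluster bounds alone, ranking by fold or in whole lists, limma without trend, each library left out, and a replicate block.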

Additional observations from a re-analysis of the deposited data

How the results depend on the processing

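Of 10 alternatives to the covered length of the window, only the limit to MT4 to MT1X reversed its sign, to 0.0753 kb more with dexamethasone (exact permutation p = 0.8), against −0.313 kb in the whole window. Leaving out 1 library gave −0.485 to −0.166 kb, and −3.5 to −1.5 peaks against −2.67. The peak difference was −3 with −log10 q not under 5 and with lists of one length (exact permutation p = 0.1 for each, the smallest possible), and −1 between MT4 and MT1X (exact permutation p = 0.9). Under the replicate block the exact paired permutation p was 0.25 for both, the smallest possible. No region was called in every dexamethasone library used and no ethanol library under any alternative run. The reverse pattern, every ethanol library used and no dexamethasone library, was met by 1 region without dexamethasone replicate 3 (56776588) and by 1 without ethanol replicate 1 (56592283), and both, so 2, counted as lost under the replicate block, whose rule is looser as it asks for 2 of 3 pairs; other libraries left out gave 0. Regions called in all libraries stayed at 12 to 13 when 1 library was left out. The number with separate, higher dexamethasone ranks was 1 when ranked by fold enrichment and 2 to 5 when 1 library was left out. The number with lower ranks was 1 by percentile within whole lists and 2 to 3 when 1 library was left out. No genome share was taken for fewer libraries, with which groups are more easily apart, and the cause was not tested. No region of the window passed the rank test (limma) in any of 13 alternatives, the replicate block included. At MT2A the upstream edge was −112 to −99.7 bases over 10 alternatives, with adjusted p from 0.0703 to 0.469 in limma, the highest under the replicate block. The summit was −119 to −64.5 bases, past the threshold without dexamethasone replicate 3 alone. Its rank difference was −0.69 to −0.25. Read depth is unknown, which limits what an absent peak can show.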
